A study of Homo sapiens with 8 samples.

Results

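Ribosomal protein genes were followed through the ATAC-seq peak lists of 2 lung cancer cell lines treated with a degrader of the SWI/SNF chromatin remodelling ATPases. The genes were chosen by symbol alone: protein-coding genes on chromosomes 1 to 22 and X whose symbol is RPL or RPS, an optional P, a number, and an optional A, X or L form. This gave 83 of 19974 protein-coding genes of the RefSeq table, made up of 43 genes for proteins of the large ribosomal subunit, 3 for the acidic stalk (RPLP), 30 for the small subunit and 7 paralogue forms whose symbol ends in L or L1.

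ATAC-seq marks open chromatin by the insertion of sequencing adapters with a transposase. H1975 and HCC44, both human lung cancer lines given as genotype WT in the labels, received DMSO, the solvent, or ACBI1 for 96 h, with 2 replicates in each of the 4 groups. ACBI1 is a bifunctional degrader of SMARCA2, SMARCA4 and PBRM1, subunits of SWI/SNF complexes that slide or evict nucleosomes, and its dose is printed as 1 mM in the labels. The title of the series is about SMARCA4 in lung cancer and STING signalling. Levels of the degraded proteins were not measured in these data, and the labels do not say whether replicates were separate cultures, so the spread between them may be technical.

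Ribosomal proteins and ribosomal RNA together form the ribosome, which translates every cellular protein. Their genes are transcribed in all growing cells from short promoters, usually in open chromatin, and the messages often start with a run of pyrimidines (a 5' terminal oligopyrimidine tract, or TOP) through which their translation is controlled by growth signals. Loss of 1 copy of several of these genes causes Diamond-Blackfan anaemia, and free RPL5 and RPL11 bind MDM2 and so stabilise p53.

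A peak within 1 kb of either end of a gene is called a boundary peak below, since the gene table has no strand. A surrounding peak lies elsewhere in the gene body or within 50 kb of the gene. Surrounding peaks were further split into those at a boundary of another protein-coding gene (neighbour peaks) and those at no gene boundary (distal peaks). The lists held 22133 to 43525 peaks in H1975 and 24862 to 50347 in HCC44, and in each line both ACBI1 lists were shorter than both DMSO lists. The depth in reads is unknown, so a missing peak is not a measurement of closed chromatin.

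Promoter sequences were taken from RefSeq (GRCh38.p14), whose table held 66 of the 83 genes with 82 start sites. The sequences below run from 40 bases before the start to 20 bases from it, with bases -1 to +4 in capitals. RPL37A and RPL31 are shown because their start was covered by a peak in all 8 samples while no surrounding peak was listed for them after ACBI1. RPL14, RPL38, RPL17 and RPLP2 are shown because the start lay under a peak in all samples except both ACBI1 samples of HCC44. RPS4X is shown as the gene whose boundary peak differed between the lines. RPL24, RPL22L1 and RPL10L stand for genes with no boundary peak in any list, and RPS27L for a paralogue form with one of the larger differences around it.
RPL37A: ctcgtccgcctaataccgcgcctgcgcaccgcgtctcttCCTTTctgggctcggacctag
RPL31: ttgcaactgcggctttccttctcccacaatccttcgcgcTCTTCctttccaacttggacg
RPL14: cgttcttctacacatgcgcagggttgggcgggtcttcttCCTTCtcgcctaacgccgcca
RPL38: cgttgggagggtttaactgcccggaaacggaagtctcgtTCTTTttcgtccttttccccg
RPL17: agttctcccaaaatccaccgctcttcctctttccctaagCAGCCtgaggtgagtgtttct
RPLP2: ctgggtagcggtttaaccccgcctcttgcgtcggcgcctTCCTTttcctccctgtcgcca
RPS4X: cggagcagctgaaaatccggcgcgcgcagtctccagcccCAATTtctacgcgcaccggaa
RPL24: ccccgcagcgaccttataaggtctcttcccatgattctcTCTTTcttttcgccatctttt
RPL22L1: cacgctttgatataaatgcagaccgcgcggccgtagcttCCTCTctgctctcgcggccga
RPL10L: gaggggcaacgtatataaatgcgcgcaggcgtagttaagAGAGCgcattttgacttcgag
RPS27L: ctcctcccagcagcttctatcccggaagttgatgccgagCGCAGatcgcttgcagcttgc

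On the plus strand lie the sequences of RPL37A (chr2:216498804-216498863), RPL31 (chr2:101002249-101002308), RPL14 (chr3:40457299-40457358), RPL38 (chr17:74203638-74203697) and RPLP2 (chr11:809927-809986). On the minus strand lie those of RPL17 (chr18:49492446-49492505), RPS4X (chrX:72277229-72277288), RPL24 (chr3:101686699-101686758), RPL22L1 (chr3:170870176-170870235), RPL10L (chr14:46651762-46651821) and RPS27L (chr15:63157458-63157517). Each spans the upstream flank and the first transcribed bases of its gene.

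A pyrimidine start, that is C at +1 within pyrimidines from -1 to +4 on the gene's strand, was present at 44 of the 82 start sites (53.7%), against 5.34% of all 22132 start sites of the table. Among genes it was present in 44 of 66 (66.7%), against 7.27% of 15812. RPL37A, RPL31, RPL14, RPL38, RPLP2, RPL24 and RPL22L1 show it in capitals above, whereas the printed starts of RPL17, RPS4X, RPL10L and RPS27L do not. TOP messages begin at such a C, and the tract often runs on for several bases, as in RPL24 and RPL38.

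The other motifs were searched on both strands of the 300 bases from 250 before to 50 after a start. The ETS core CCGGAAG was found in 34.1% of the 82 promoters and in 12.8% of all promoters, and the YY1 core AAGATGGC in 8.54% and 3.54%. The SP1 core GGGCGG (53.7% and 56.3%), the NFY core CCAAT (31.7% and 34.6%), the TATA core TATAAA (8.54% and 9.46%) and the NRF1 core GCGCATGC (3.66% and 3.74%) had shares near those of all promoters. Counted by gene, the ETS core was present in 36.4% of 66 genes and in 16.5% of all 15812. The NFY core was present in 33.3% and 42.1%, the SP1 core in 57.6% and 64.2%, and the YY1 core in 10.6% and 4.67%. The shares by gene were 10.6% and 12.4% for TATA, and 4.55% and 4.89% for NRF1. Median GC content was 59.3% in the ribosomal protein promoters and 62.3% in all. A match describes the letters only and is not a bound site.

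Nearly all ribosomal protein genes carried a boundary peak, and most still had one listed after ACBI1. A boundary peak was listed in all 8 samples for 71 of the 83 genes (85.5%), where 52.8% of all protein-coding genes had one in all 8. In both DMSO samples, 76 genes had one in H1975 (all genes 59.6%) and 75 in HCC44 (all genes 61%). In H1975, all 76 also had one in both ACBI1 samples, beside 95.2% of all genes with a DMSO boundary peak. In HCC44, 71 of 75 did, beside 91.9% of all such genes. Among peaks of the authors' fold enrichment of at least 5, the counts were 57 of 63 in H1975 and 20 of 30 in HCC44 (66.7%), beside 91.5% and 64.9% of all such genes.

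The number of boundary peaks summed over the 83 genes was 92 and 92 in the DMSO samples of H1975 and 97 and 96 in its ACBI1 samples. In HCC44 the sums were 99 and 97 with DMSO against 96 and 98 with ACBI1. The groups did not overlap in H1975, where ACBI1 was higher by 0.07 on the log2 scale (SD 0.0075, n = 2 per group), and they overlapped in HCC44 (-0.01, SD 0.021). In H1975 the direction turned when only peaks of the authors' fold enrichment of at least 5 were kept (-0.10). For all protein-coding genes the corresponding log2 differences were -0.06 in H1975 and -0.13 in HCC44.

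The 4 genes that lost a DMSO boundary peak in HCC44 encode 2 large-subunit and 2 small-subunit proteins. RPL14 and RPL8, both core proteins of the large subunit, had none in either ACBI1 sample. RPS27, a zinc-finger protein of the small subunit, lacked it in ACBI1 replicate 2, and RPS16, a small-subunit protein, lacked it in ACBI1 replicate 1. For all 4 the HCC44 DMSO peaks were modest within their lists. The RPL14 peak stood at percentiles of 53.9 and 50.2 by the authors' −log10 q within the list, and it was 354 and 360 bp wide. The RPL8 peak stood at 41.3 and 50.4, the RPS27 peak at 31.9 and 46.9, and the RPS16 peak at 29.5 and 64.0 on the same percentile scale. In H1975 all 4 genes kept the peak in every sample, with the RPL14 peak at percentiles of 70.4 and 80.7 with DMSO and 58.8 and 55.0 with ACBI1. Beside RPL14 (chr3:40457339-40468587), a further peak before its start was listed in all 8 samples, at percentiles from 84.0 to 94.1.

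RPS4X, the X-linked copy of a small-subunit gene that also exists on the Y chromosome, was the remaining gene with an incomplete boundary record. It had a boundary peak in all 4 H1975 samples, in no HCC44 DMSO sample, and in ACBI1 replicate 2 of HCC44 only. That single HCC44 peak, 319 bp wide, covered the start site printed above and stood at a percentile of 28.5 in its list. Its surrounding peaks numbered 4 and 4 with DMSO against 2 and 2 with ACBI1 in H1975, and 4 and 5 with DMSO against 1 and 1 with ACBI1 in HCC44.

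Coverage of the start base itself gave another view of the 66 genes with promoter sequence. The start lay under a peak in all 8 samples for 51 of them (77.3%), against 52.2% of 15812 genes. It was covered for 61 and 61 genes with DMSO and 60 and 60 with ACBI1 in H1975, and for 60 and 60 with DMSO against 54 and 54 with ACBI1 in HCC44. Of the 66 genes this was 92.4% in each DMSO and 90.9% in each ACBI1 sample of H1975. In HCC44 it was 90.9% in each DMSO and 81.8% in each ACBI1 sample. The H1975 difference rests on RPL6 alone, whose listed starts lie inside the gene, as described below. The groups did not overlap in either line. Nor did they over all 15812 genes, where the share covered was 60.04% and 60.18% with DMSO against 59.5% and 57.8% with ACBI1 in H1975, and 59.9% and 59.8% against 56.5% and 56.5% in HCC44. In both HCC44 ACBI1 samples the start was uncovered for RPL14, RPL38, RPL17 and the stalk gene RPLP2. The RPLP2 peak did not disappear: it ended at 809985 and 809994 with DMSO and at 809943 and 809956 with ACBI1, on either side of the start at 809967. RPL38 and RPL17 had 2 boundary peaks in each HCC44 DMSO sample and 1 in each ACBI1 sample, at the other end of the gene.

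For RPL6, a large-subunit gene, the start sites in the promoter table (112409285 and 112411442) lie inside the gene (chr12:112405181-112418835), away from its boundary peak. They were uncovered in both H1975 ACBI1 samples and in HCC44 ACBI1 replicate 2, and the boundary peak was listed in all 8 samples. The starts of RPS27 and RPL41 were uncovered in HCC44 ACBI1 replicate 2 only, and those of RPS16 and RPL28 in replicate 1 only. Of the 44 genes with a pyrimidine start, 40 were covered in all H1975 samples and in both HCC44 DMSO samples, and 35 in each HCC44 ACBI1 sample. Of the 22 without one, 21 and 21 were covered with DMSO and 20 and 20 with ACBI1 in H1975, and 20 and 20 with DMSO against 19 and 19 with ACBI1 in HCC44. No test was made of the difference between these sets.

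The boundary peaks of ribosomal protein genes did not rank higher within their lists than those of all protein-coding genes. The median percentile of a gene's strongest boundary peak, ranked by −log10 q, was 80.5 and 79.6 with DMSO and 74.1 and 69.2 with ACBI1 in H1975. It was 75.5 and 73.2 with DMSO and 73.5 and 72.1 with ACBI1 in HCC44. Medians over all protein-coding genes with a boundary peak were 81.1, 81.0, 77.4 and 72.7 in the same order in H1975 and 78.5, 78.1, 76.4 and 75.8 in HCC44, each above that of the ribosomal protein genes. These are positions within lists of different lengths, so they cannot show whether strength changed. Among an equal number of strongest peaks the ACBI1 median lay above the DMSO median.

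**Figure D1:**
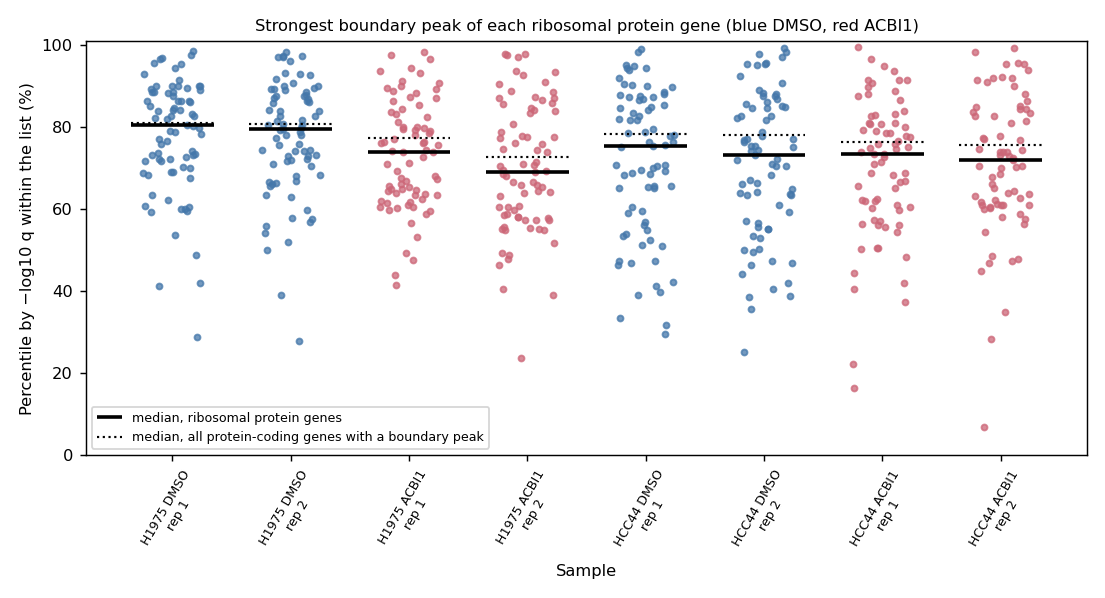
Percentile by the authors' −log10 q, within each sample's list, of the strongest boundary peak of each ribosomal protein gene (points, spread sideways at random), with solid bars for their median and dotted bars for the median of all protein-coding genes. The solid bar lies below the dotted bar in all 8 samples, from 69.2 to 80.5.

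By the authors' fold enrichment, the median percentile of these peaks was 50.1 and 52.2 with DMSO and 55.1 and 60.7 with ACBI1 in H1975, and 31.7 and 29.8 with DMSO and 41.4 and 47.8 with ACBI1 in HCC44. Medians over all genes were 51.8, 55.4, 61.2 and 63.2, and 43.7, 40.5, 54.5 and 56.5, so the distance from all genes was wider in HCC44 than in H1975. Median width was 1063 and 955.5 bp in the DMSO lists of H1975 and 957.5 and 737.5 bp in its ACBI1 lists, where the groups overlapped. It was 1101 and 1073 bp, against 893 and 866 bp after ACBI1, in HCC44, where they did not. Over all genes the HCC44 widths were 1199, 1197, 1011 and 998 bp.

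By mean percentile in the DMSO samples, the boundary peak of RPL39L was among the 5 highest. It belongs to a paralogue of RPL39 best known from testis and stood at percentiles of 95.8 to 99.7 over the 8 samples. RPL7L1 (84.7 to 97.6), RPL15 (79.5 to 97.7) and RPL5 (76.1 to 97.2) were also among them. The 5 lowest were RPL19 (23.8 to 52.5), RPS16 (28.8 to 64.0 where present), RPL3L, a form expressed in heart and skeletal muscle (34.9 to 65.4), RPS3 (38.6 to 63.5) and RPL38 (39.2 to 68.8). No listed peak in any sample overlapped the RPL3L gene itself, and the nearest one lay 258 bp outside it. The values in brackets are ranges over all samples. These genes were picked by their DMSO percentiles, so the distance between the high and the low ones follows from that choice.

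Genes with no boundary peak in any of the 8 samples included RPS9, RPS18, RPL24, RPL10L, RPL22L1 and RPL26L1. RPS18, a small-subunit gene inside the major histocompatibility region, lay in a stretch free of listed peaks at chr6:29752763-33539954 that held 147 protein-coding genes. RPS9 lay in such a stretch at chr19:54137706-55086822 with 36 genes. A peak-free stretch of 3787192 bp with 147 genes is a property of the lists in that region and gives no measurement of RPS18, and the same limit holds for RPS9.

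RPL10L, a retrotransposed copy of RPL10 known from testis, was the only protein-coding gene in its peak-free stretch (chr14:46574849-47442360). RPL24 lay in a stretch of 58201 bp and RPL22L1, a paralogue of RPL22, in one of 20970 bp, so both had listed peaks within 50 kb. RPL26L1 had no peak at the ends of its RefSeq gene, yet both of its listed start sites, which lie inside the gene, were covered in all 8 samples. Altogether 4 of the 83 genes (4.82%) had no peak at or around them in any list, beside 9.13% of all protein-coding genes.

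Around the genes, fewer peaks were listed after ACBI1 in both lines. Surrounding peaks summed over the 83 genes numbered 355 and 346 with DMSO against 300 and 279 with ACBI1 in H1975, a mean of 350.5 ± 6.36 against 289.5 ± 14.8 (SD, n = 2 each). In HCC44 they numbered 369 and 361 with DMSO against 283 and 270 with ACBI1, a mean of 365 ± 5.66 against 276.5 ± 9.19. The groups did not overlap in either line. On the log2 scale the difference was -0.28 (SD between replicates 0.056) in H1975 and -0.40 (SD 0.037) in HCC44. Over all protein-coding genes it was -0.56 (SD 0.13) and -0.73 (SD 0.042).

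The larger difference was in distal peaks. They numbered 196 and 187 with DMSO against 141 and 128 with ACBI1 in H1975, a log2 difference of -0.51 beside -0.86 for all genes. In HCC44 they numbered 209 and 202 with DMSO against 132 and 120 with ACBI1, a difference of -0.71 beside -1.05. Neighbour peaks numbered 159 and 159 with DMSO against 159 and 151 with ACBI1 in H1975, where the groups overlapped, and 160 and 159 against 151 and 150 in HCC44, where they did not. The log2 difference was -0.04 (SD 0.037) and -0.08 (SD 0.0066), beside -0.05 and -0.14 for all genes. The ribosomal protein genes had more neighbour peaks than the average gene, 1.92 per gene with DMSO in either line against 1.18 and 1.2. They also had a median of 3 other protein-coding genes within 50 kb, against 2 for all genes.

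**Figure D2:**
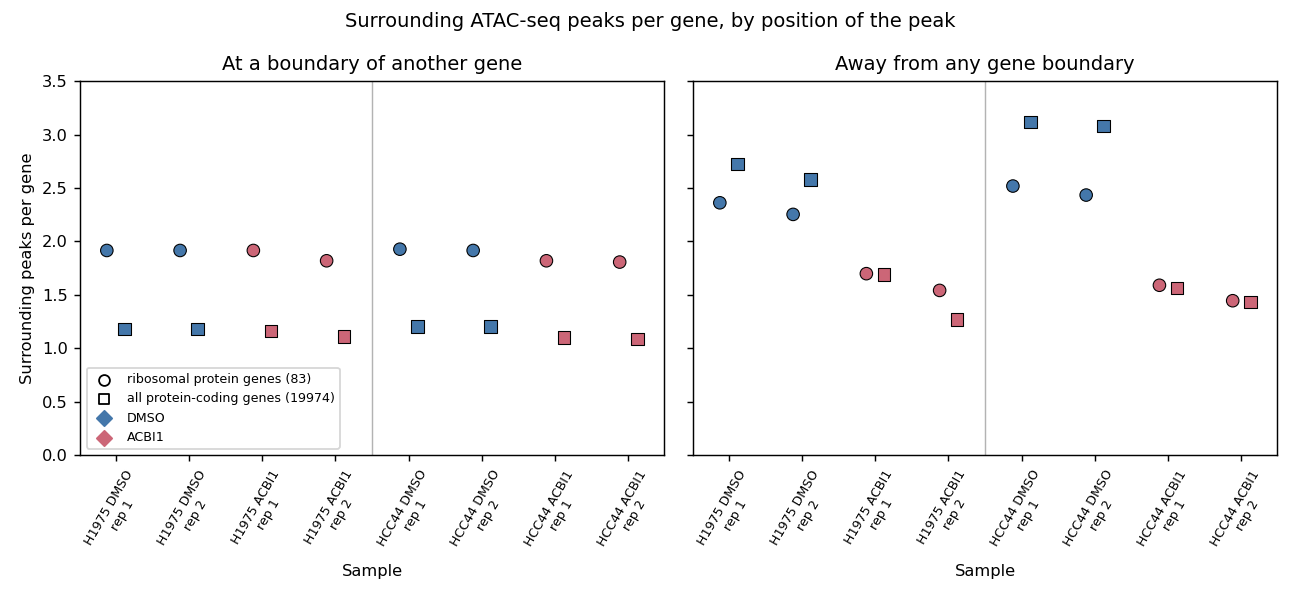
Surrounding peaks per gene in each sample, at a boundary of another gene (left) and at no gene boundary (right), for ribosomal protein genes (circles) and all protein-coding genes (squares), with DMSO in blue and ACBI1 in red. Neighbour peaks lie between 1.81 and 1.93 per ribosomal protein gene, while distal peaks go from 2.25 to 2.52 with DMSO to 1.45 to 1.70 with ACBI1.

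Gene by gene, for 32 of the 83 (38.6%) each ACBI1 sample of H1975 listed fewer surrounding peaks than either DMSO sample, beside 43% of all protein-coding genes. In HCC44 36 (43.4%) did, beside 54.5%. More surrounding peaks in both ACBI1 samples were found for 4 genes in H1975 (all genes 1.38%) and 3 in HCC44 (all genes 1.85%). Where both DMSO samples had a boundary peak, 30 of 76 genes had fewer in H1975 (all such genes 49.6%) and 33 of 75 in HCC44 (all such genes 63.9%). For distal peaks the counts were 30 of 83 (all genes 42.7%) and 32 of 83 (all genes 52.5%), and for neighbour peaks 4 (all genes 4.17%) and 10 (all genes 9.03%). How these shares stand to all genes depended on the setting: with a window of 100 kb, 60.2% and 67.5% of the 83 genes had fewer, beside 56.6% and 66.8% of all genes, and with a −log10 q of at least 20, 43.4% and 45.8% did, beside 43.0% and 53.7%.

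Both lines together showed fewer surrounding peaks for 20 genes (24.1%), beside 33.6% of all protein-coding genes. These 20 reached the smallest p that an exact permutation test, two-sided and stratified by line, can give over 36 arrangements (0.0556). After Benjamini-Hochberg adjustment over all genes the lowest value was 0.165, and within 1 line the smallest possible p is 0.333, so no single gene can pass 0.05. The counts below are therefore given as values in each sample.

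The direction of these differences turned when lists of equal length were compared. Each list was limited to its 22133 strongest peaks by −log10 q, the length of the shortest list. The log2 difference in surrounding peaks of the 83 genes was then 0.30 in H1975 and 0.42 in HCC44. For all protein-coding genes the direction turned as well, to 0.16 and 0.21. Of the 83, genes with fewer then numbered 7 (8.43%) and 3 (3.61%), beside 12% and 14% of all genes. Genes with more made up 24.1% and 37.3% of the 83, beside 21.7% and 27.7% of all.

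**Figure D3:**
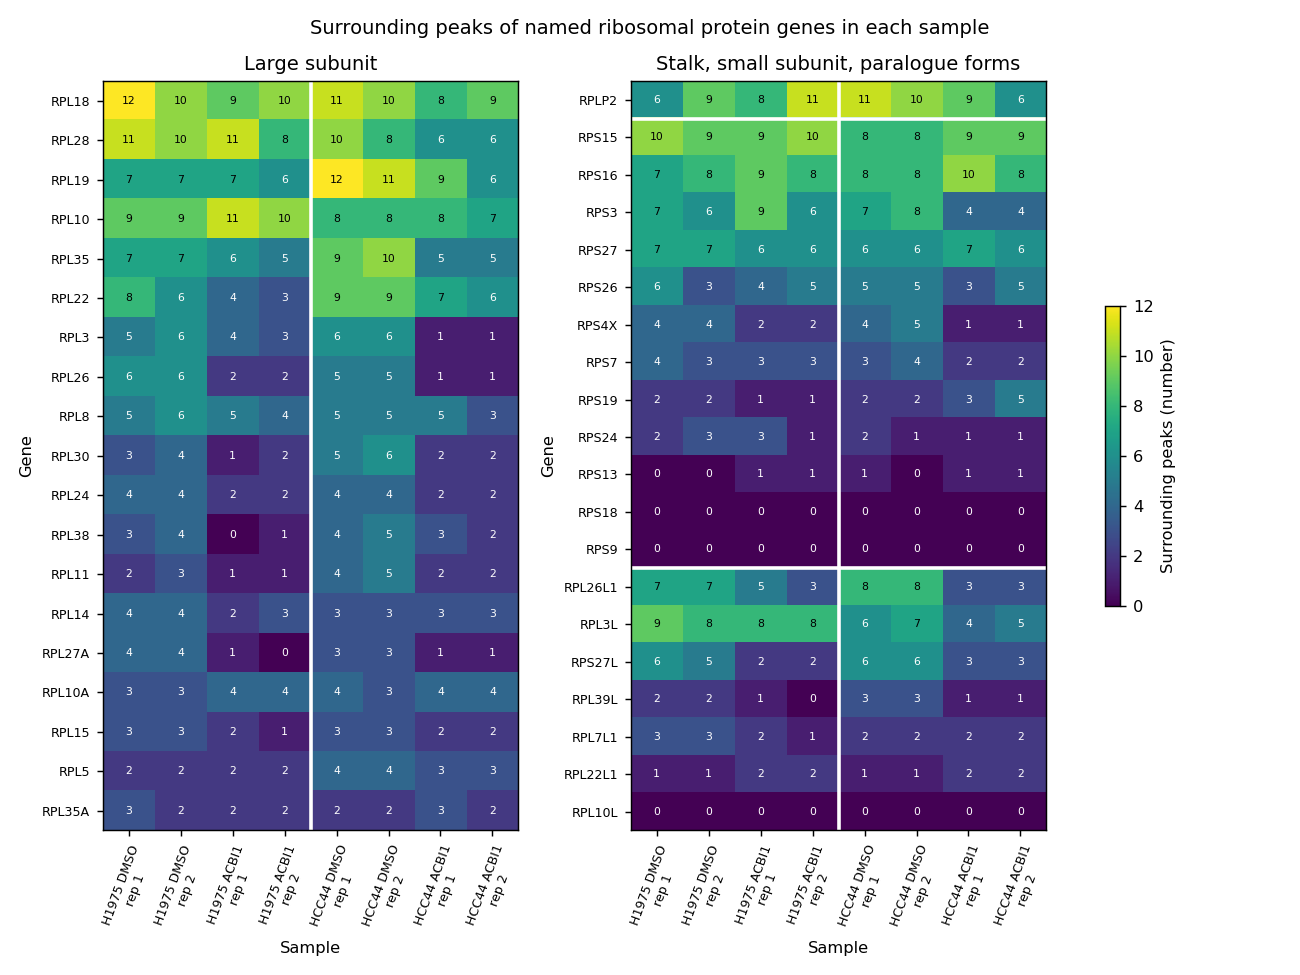
Number of surrounding peaks of named ribosomal protein genes (rows, by class and by DMSO mean) in each of the 8 samples (columns), from 0 (dark) to 12 (yellow). RPL26, RPL3, RPL27A and RPS27L darken from DMSO to ACBI1 in both lines, and RPL22L1 goes from 1 to 2.

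In the gene-wise values that follow, the 2 DMSO counts come before the 2 ACBI1 counts, and H1975 before HCC44. Among large-subunit genes, RPL26 had the largest difference averaged over both lines, with RPL26L1 beside it among the paralogues. RPL26 (chr17:8377516-8383193), whose protein also binds the p53 message, had 6 and 6 surrounding peaks with DMSO and 2 and 2 with ACBI1 in H1975, and 5 and 5 with DMSO against 1 and 1 with ACBI1 in HCC44. RPL3 (chr22:39312882-39319623), a core protein close to the peptidyl transferase centre, had 5 and 6 with DMSO against 4 and 3 with ACBI1 in H1975, and 6 and 6 against 1 and 1 in HCC44. Every one of the RPL3 peaks was distal. RPL35 (chr9:124857883-124861957), near the exit of the peptide tunnel, had 7 and 7 against 6 and 5 in H1975, and 9 and 10 against 5 and 5 in HCC44. Groups did not overlap for these genes in either line.

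RPL22 (chr1:6185020-6199595), a large-subunit protein that matters in lymphoid development, had 8 and 6 with DMSO against 4 and 3 with ACBI1 in H1975, and 9 and 9 against 7 and 6 in HCC44. RPL27A (chr11:8682792-8689872) had 4 and 4 against 1 and 0 in H1975, and 3 and 3 against 1 and 1 in HCC44, all of them distal. RPL30 had 3 and 4 against 1 and 2, and 5 and 6 against 2 and 2. RPL31 and RPL37A, whose starts are printed above, had no surrounding peak left in any ACBI1 sample: RPL31 had 2 and 1 with DMSO in H1975 and 2 and 2 in HCC44, and RPL37A had 1 and 1, and 2 and 2. RPL4 likewise went from 3 and 3, and 1 and 2, to 0 in all 4 ACBI1 samples. The boundary peak of each of RPL31, RPL37A and RPL4 was listed in every sample. RPL31, RPL37A and RPL4 were picked out after their values were seen.

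Among the genes with the most surrounding peaks in DMSO, those described here showed smaller or unequal differences. RPL18 had 12 and 10 with DMSO against 9 and 10 with ACBI1 in H1975, where the groups overlapped, and 11 and 10 against 8 and 9 in HCC44. RPL28 had 11 and 10 against 11 and 8, and 10 and 8 against 6 and 6. RPL19 had 7 and 7 against 7 and 6 in H1975, and 12 and 11 against 9 and 6 in HCC44. For RPL18, RPL28 and RPL19 the groups were apart only in HCC44, and the difference between the lines was not tested.

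RPL10, a large-subunit protein that joins late in assembly, had 9 and 9 with DMSO against 11 and 10 with ACBI1 in H1975, and 8 and 8 against 8 and 7 in HCC44. RPS15 had 10 and 9 against 9 and 10, and then 8 and 8 against 9 and 9. RPL10A had 3 and 3 against 4 and 4 in H1975, and 4 and 3 against 4 and 4 in HCC44. RPS13 had 0 and 0 against 1 and 1, and then 1 and 0 against 1 and 1. More peaks in both ACBI1 samples were thus seen in 1 line only for RPL10, RPL10A, RPS13 and RPS15.

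Stalk genes encode the acidic proteins that recruit elongation factors. RPLP2, with 12 other protein-coding genes within 50 kb, had 6 and 9 surrounding peaks with DMSO and 8 and 11 with ACBI1 in H1975, and 11 and 10 with DMSO against 9 and 6 with ACBI1 in HCC44. None of the 3 stalk genes had separate groups in H1975, and all 3 had fewer in both ACBI1 samples of HCC44. Over all protein-coding genes 43% had fewer in H1975 and 54.5% in HCC44. The replicates of RPLP2 differed by 3 peaks within 3 of its 4 groups.

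Large-subunit and small-subunit genes differed in how many had fewer surrounding peaks. In H1975, 22 of 43 large-subunit genes (51.2%) and 6 of 30 small-subunit genes (20%) did, beside 43% of all genes. In HCC44, 24 of 43 (55.8%) and 5 of 30 (16.7%) did, beside 54.5%. No surrounding peak was listed in any sample of the line for 4 small-subunit genes in H1975 and 3 in HCC44. For the large subunit these genes numbered 0 and 0, and over all 19974 genes 2977 and 2627. Such genes could not show fewer. The log2 difference of the summed counts was -0.38 (SD 0.071) for the large and -0.11 (SD 0.033) for the small subunit in H1975, and -0.51 (SD 0.059) and -0.16 (SD 0.025) in HCC44. The comparison was singled out after the counts were seen. It is a description of the counts, and no test of the difference was made.

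The classes differed in their distal peaks with DMSO. A distal peak was listed in both DMSO samples for 39 of 43 large-subunit and 18 of 30 small-subunit genes in H1975, and for 40 and 22 in HCC44. Among these, 22 of 39 (56.4%) and 4 of 18 (22.2%) had fewer distal peaks in H1975, and 22 of 40 (55.0%) and 4 of 22 (18.2%) in HCC44. Over all protein-coding genes with a distal peak in both DMSO samples the shares were 57.8% and 67.8%. Chromosome 19 holds 12 of the 83 genes. Away from it, fewer surrounding peaks were found for 21 of 38 large-subunit and 4 of 23 small-subunit genes in either line. Over all protein-coding genes, with chromosome 19 included, the shares were 43% in H1975 and 54.5% in HCC44.

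Leaving out a library can only keep or raise such a count, and the counts of both classes rose. The small-subunit count was 10 without H1975 DMSO replicate 2, 8 without HCC44 DMSO replicate 2 and 9 without HCC44 ACBI1 replicate 1. Without the same libraries the large-subunit counts were 25, 28 and 28. The share of all genes was not counted without them. With a 100 kb window the small-subunit count was 15 in either line. The large-subunit counts were then 30 and 34, and the shares of all genes 56.6% and 66.8%. With a fold enrichment of at least 5 the small-subunit count was 3 and 10. The large-subunit count was then 23 and 26, and the shares of all genes 40.4% and 52.9%. With the 22133 strongest peaks per list the counts were 4 and 3 for the large and 0 and 0 for the small subunit, beside 12% and 14% of all genes. These alternatives were chosen after seeing the data.

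**Figure D4:**
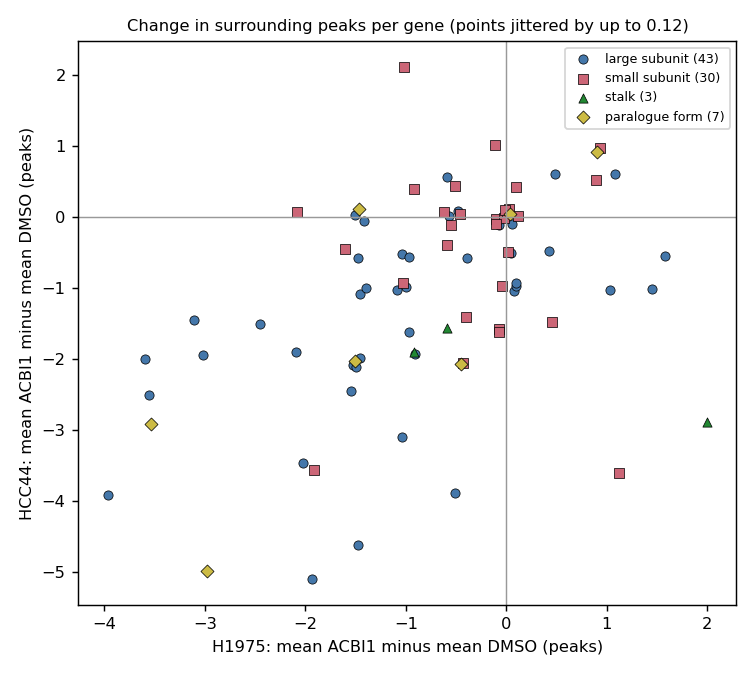
Change in the number of surrounding peaks of each ribosomal protein gene, mean of the 2 ACBI1 samples minus mean of the 2 DMSO samples, in H1975 (horizontal) and HCC44 (vertical), with points moved slightly so that they do not hide each other. Most small-subunit genes (squares) lie close to 0 in both lines, whereas large-subunit genes (circles) reach further down and left, with RPL26 at -4 in both lines. Genes with no surrounding peak in any sample also lie at 0.

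The small-subunit gene with the largest difference over both lines was RPS4X, whose counts are given above. RPS19, the gene most often mutated in Diamond-Blackfan anaemia, had 2 and 2 surrounding peaks with DMSO and 1 and 1 with ACBI1 in H1975, but 2 and 2 with DMSO against 3 and 5 with ACBI1 in HCC44. RPS3, a small-subunit protein with a role in DNA repair, had 7 and 6 against 9 and 6 in H1975, and 7 and 8 against 4 and 4 in HCC44. RPS16 had 7 and 8 against 9 and 8, and then 8 and 8 against 10 and 8. RPS27 had 7 and 7 against 6 and 6 in H1975, and 6 and 6 against 7 and 6 in HCC44. Separate groups in opposite directions were seen for RPS19.

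Other genes known from Diamond-Blackfan anaemia or p53 control showed small counts. RPL11 had 2 and 3 with DMSO against 1 and 1 with ACBI1 in H1975, and 4 and 5 against 2 and 2 in HCC44. RPL5 had 2 in all 4 H1975 samples, and 4 and 4 against 3 and 3 in HCC44. RPS7, which also binds MDM2, had 4 and 3 against 3 and 3, and then 3 and 4 against 2 and 2. RPS26 had 6 and 3 against 4 and 5, and then 5 and 5 against 3 and 5, with replicates as far apart as the groups. RPS24 had 2 and 3 against 3 and 1, and then 2 and 1 against 1 and 1. RPL35A had 3 and 2 against 2 and 2, and then 2 and 2 against 3 and 2. Of these genes RPL11 alone had fewer in both ACBI1 samples of both lines.

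Most paralogue forms with separate groups had fewer surrounding peaks after ACBI1, and only RPL22L1 had more. RPS27L (chr15:63148249-63157477), a p53 target, had 6 and 5 surrounding peaks with DMSO and 2 and 2 with ACBI1 in H1975, and 6 and 6 against 3 and 3 in HCC44. RPL26L1 (chr5:172954094-172969771) had 7 and 7 against 5 and 3, and then 8 and 8 against 3 and 3. RPL39L had 2 and 2 against 1 and 0, and then 3 and 3 against 1 and 1. RPL7L1 had 3 and 3 against 2 and 1 in H1975, and 2 in all 4 HCC44 samples. In each line 4 of the 7 paralogue forms had fewer, beside 43% and 54.5% of all genes.

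RPL22L1 was the only ribosomal protein gene with more surrounding peaks in both ACBI1 samples of both lines: 1 in each of the 4 DMSO samples and 2 in each of the 4 ACBI1 samples. The added peak was among the weakest of its list, at percentiles of 5.52 and 0.917 in H1975 and 5.48 and 9.01 in HCC44. It lay beyond 1 end of the gene in 3 samples (from 170862505 to 170863282 at the widest) and elsewhere, at chr3:170884253-170884564, in HCC44 ACBI1 replicate 1. Its parent gene RPL22 went the other way, as given above. Over all protein-coding genes 38 (0.190%) showed this pattern in that direction. RPL3L had 9 and 8 against 8 and 8, and then 6 and 7 against 4 and 5, and it lies 7368 bp from RPS2, so they share most of their window. RPL10L had no surrounding peak in any sample.

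Other gene lists of the ribosome and of protein turnover gave the following counts of the same kind. Of 77 mitochondrial ribosomal protein genes, whose products form the separate ribosome of mitochondria, 71 of 71 kept the DMSO boundary peak in H1975 and 69 of 72 in HCC44, and 37 (48.1%) and 42 (54.5%) had fewer surrounding peaks. Of 39 proteasome subunit genes, 31 of 31 and 32 of 32 kept it, and 12 (30.8%) and 16 (41.0%) had fewer. Of 17 translation factor and other TOP genes, 16 of 16 and 15 of 15 kept it, and 6 and 10 had fewer. Of 13 genes of ribosome assembly and RNA polymerase I, 11 of 11 and 12 of 12 kept it, and 4 and 6 had fewer. The boundary shares can be read beside 95.2% and 91.9% of all genes, and the surrounding shares beside 43% and 54.5%.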

How the data were processed

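ATAC-seq peak lists of 8 samples (H1975 and HCC44, DMSO or ACBI1, 2 replicates each) were used. Peaks were deposited per sample by the authors, 1 headerless list each in the broadPeak layout. BWA and hg38 are named in the submitters' processing notes. The peak caller and its thresholds are not given in the sources used here. The authors' fold enrichment per peak is a ratio over the caller's background. The authors deposited each peak's p-value and q-value as −log10 values, and a score column that was not used. Such values were compared between lists only as ranks or through the fixed cut-offs of the alternatives. A fixed cut-off depends on the scale of each list. In HCC44 the median fold of the members' strongest boundary peaks was 4.95 and 4.57 with DMSO and 4.67 and 4.43 with ACBI1, near the cut-off of 5. Read depth is unknown, so counting intervals are not given.

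Genes, their positions and their promoters came from RefSeq tables of GRCh38.p14. A peak counted for a window when it overlapped it by at least 1 bp. Boundary windows were 1 kb either side of either gene end, and surrounding windows reached 50 kb. Overlapping windows of neighbouring members were counted for each. Differences are the mean log2 count with ACBI1 minus that with DMSO, set beside the SD between replicates and the same value over all protein-coding genes. Single genes were tested by an exact permutation test within lines with Benjamini-Hochberg adjustment over all genes. The members and the other gene lists were chosen with earlier results of these data known. Genes named are those without a boundary peak in some sample, the 8 with most surrounding peaks, the 8 with the largest difference, those with more after ACBI1, paralogue forms, genes of Diamond-Blackfan anaemia or p53 control, and the 5 highest and 5 lowest boundary peaks by percentile in DMSO. Some genes that these rules pick are not reported here by name, but all members enter the counts. Scripts used Python 3.11.15, numpy 2.4.6, pandas 2.3.3, scipy 1.17.1 and matplotlib 3.10.9 and were tested on simulated data.

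Alternatives were a −log10 q of at least 20, a fold enrichment of at least 5, equal numbers of strongest peaks, other windows, peak midpoints, joining gaps of up to 1200 bp, leaving out paralogue forms or neighbouring members, leaving out each replicate, and a replicate block.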

Additional observations from a re-analysis of the deposited data

Results flagged for a closer look

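Surrounding peaks of RPS19 differed in opposite directions in the 2 lines: the mean with ACBI1 minus the mean with DMSO was -1 peak in H1975 and 2 peaks in HCC44, a difference of 3 peaks between the lines. All 4 DMSO samples had 2, both H1975 ACBI1 samples had fewer (1 and 1) and both HCC44 ACBI1 samples had more (3 and 5). The difference was not tested. Its distal peaks numbered 1 and 1 with DMSO against 0 and 0 with ACBI1 in H1975, and 1 and 1 against 2 and 4 in HCC44.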

How the results depend on the processing

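Over 12 results (differences of log2 counts or widths, of percentiles, and counts of genes; H1975 before HCC44), 112 values under other settings gave 79 close to the reported value (within 1 SD between replicates, or 1.5 times for a count), 28 that moved further and 5 that turned direction, the cause of which was not tested. With the 22133 strongest peaks per list, the difference in surrounding peaks was 0.2964 in H1975 and 0.4231 in HCC44 (all genes 0.1626 and 0.2052). Genes with fewer then numbered 7 and 3 (all genes 12% and 14%). The percentile difference was then 4.741 and 16.31, boundary peaks differed by 0.2046 and 0.501, and the HCC44 width by -0.3578. With a fold enrichment of at least 5, boundary peaks differed by -0.09693 and -0.2946, surrounding peaks by -0.5192 and -1.31, 57 of 63 and 20 of 30 genes kept the boundary peak (all genes 91.5% and 64.9%), and in HCC44 the percentile difference was -20.36 and the width change -0.2678. With a −log10 q of at least 20, boundary peaks differed by 0.03968 and -0.09986, surrounding peaks by -0.4089 and -0.5122, and the percentile difference was -11.57 and -7.039. With a 100 kb window surrounding peaks differed by -0.3595 and -0.5358, and 50 and 56 genes had fewer (60.2% and 67.5%, all genes 56.6% and 66.8%). Boundary peaks differed by 0.03395 and -0.05215 with peak midpoints, 0.01136 and -0.08646 with 5 kb windows, and in H1975 0.07709 with joined peaks and 0.08332 without members that have another within 100 kb; with 5 kb windows the HCC44 percentile difference was -2.918. Reported values were 0.06888 and -0.0148 (boundary peaks), -0.2767 and -0.4009 (surrounding peaks), -8.349 and -1.543 (percentile) and -0.2622 and -0.3056 (width).

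Of 48 values without 1 replicate, 1 moved beyond the spread: boundary peaks in H1975 ranged from 0.0614 to 0.07635. Within a wide spread, the H1975 width ranged from -0.4505 without ACBI1 replicate 1 to -0.07389 without ACBI1 replicate 2, the HCC44 percentile difference from -2.677 without DMSO replicate 2 to -0.4077 without DMSO replicate 1 (-0.8376 without ACBI1 replicate 2), and HCC44 boundary peaks from -0.02967 without ACBI1 replicate 2 to 7.511e-05 without ACBI1 replicate 1. With a replicate block, genes with fewer surrounding peaks numbered 32 in H1975 and 41 in HCC44, against 32 and 36. With 2 pairs, replicate numbers were not taken to pair samples: deviations of same-numbered samples correlated at 0.114 in H1975 and 0.0404 in HCC44 over 19974 genes. Depth is unknown, and genes inside a peak-free stretch give no measurement.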
